A study of Mus musculus with 3 samples.

Results

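The HoxA, HoxB, HoxC and HoxD gene clusters were followed in RNA of ovulated mouse oocytes as every 1 kb window of 4 intervals of the mm9 genome. The intervals were chr6:52100001-52220000 for HoxA, chr11:96050001-96235000 for HoxB, chr15:102745001-102875000 for HoxC and chr2:74495001-74610000 for HoxD. They gave 120, 185, 130 and 115 windows, or 550 of the 2725738 windows in the files, and were set by position alone. The series held 1 group, oocytes of 3 litters with 1 library each, and no second genotype or stage was compared. The egg donors were superovulated females of mixed strain, LSD1 FL/FL and ZP3::Cre negative, so they carried floxed alleles of the histone demethylase gene without the transgene that deletes it in growing oocytes. Oocytes were collected by embryonic day 0.5 and lysed, and their total RNA was copied by SPIA, a linear isothermal amplification, before Illumina libraries were built. The labels do not say how many oocytes or females made up a litter's library. The labelled cell type was not checked against marker genes, because the annotation at hand is built on GRCm38 and not on mm9.

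Hox genes encode homeodomain transcription factors that give cells of the embryo their position along the head-to-tail axis. Their order along the chromosome follows the order in which they are switched on in time and space, and Polycomb group proteins keep the clusters silent where they are not used. The GRCm38 annotation lists 39 Hox genes, and here it served for names and order only. HoxA holds 11, among them Hoxa13, which acts in the distal limb and the genital tract. By rising coordinate, HoxB holds 10, from Hoxb13 to Hoxb1, HoxC 9, from Hoxc13 to Hoxc4, and HoxD 9, from Hoxd13, known for its part in digit formation, to Hoxd1. Between them lie microRNA genes (Mir196b in HoxA, Mir196a-1 and Mir10a in HoxB, Mir196a-2 and Mir615 in HoxC, Mir10b in HoxD) and long noncoding RNA genes such as Hotairm1 in HoxA and Hotair in HoxC. No covered stretch below was assigned to any of these genes, and the tracks carry no strand, so sense and antisense RNA could not be told apart. In RNA of a lysed bulk sample, fewer cells with a transcript and less of it per cell cannot be told apart either.

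Most of the 550 windows held no alignment. The share of windows without a covered base was 95.5%, 94.2% and 95.1% in litters 1, 2 and 3 (94.9% ± 0.656, SD, n = 3). In total 498 windows were empty in all litters, and 52 had signal in at least 1. The libraries held 35183199, 31787887 and 32028802 alignments, so 1 alignment corresponds to 0.0284, 0.0315 and 0.0312 CPM (alignments scaled to a library total of 1e6). A window at 0 therefore allows up to 0.0853, 0.0944 and 0.0937 CPM in litters 1, 2 and 3, taking 3 alignments as the limit for a count of 0. Amplified reads are not independent molecules, so these limits and the intervals below cover counting error only.

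Signal was unevenly divided among the clusters, and 1 cluster held most of it. The HoxA interval summed to 31.9, 39.2 and 58.5 CPM in litters 1, 2 and 3, with 95% Wilson intervals of 30.1 to 33.8, 37.1 to 41.5 and 56.0 to 61.3. HoxD followed with 5.06 CPM (4.37 to 5.86), 2.61 CPM (2.11 to 3.24) and 8.06 CPM (7.13 to 9.10) in the same order. HoxB held 1.31 CPM (0.980 to 1.74), 2.83 CPM (2.30 to 3.48) and 3.97 CPM (3.33 to 4.72). The order HoxA, HoxD, HoxB was not the same in all litters below the first place, since in litter 2 HoxB and HoxD had overlapping intervals. HoxC was the lowest in every litter, with 0.284 CPM (0.154 to 0.523), 1.13 CPM (0.818 to 1.57) and 0.312 CPM (0.170 to 0.575). The HoxA, HoxB and HoxD sums were highest in litter 3, while the HoxC sum was highest in litter 2.

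**Figure D1:**
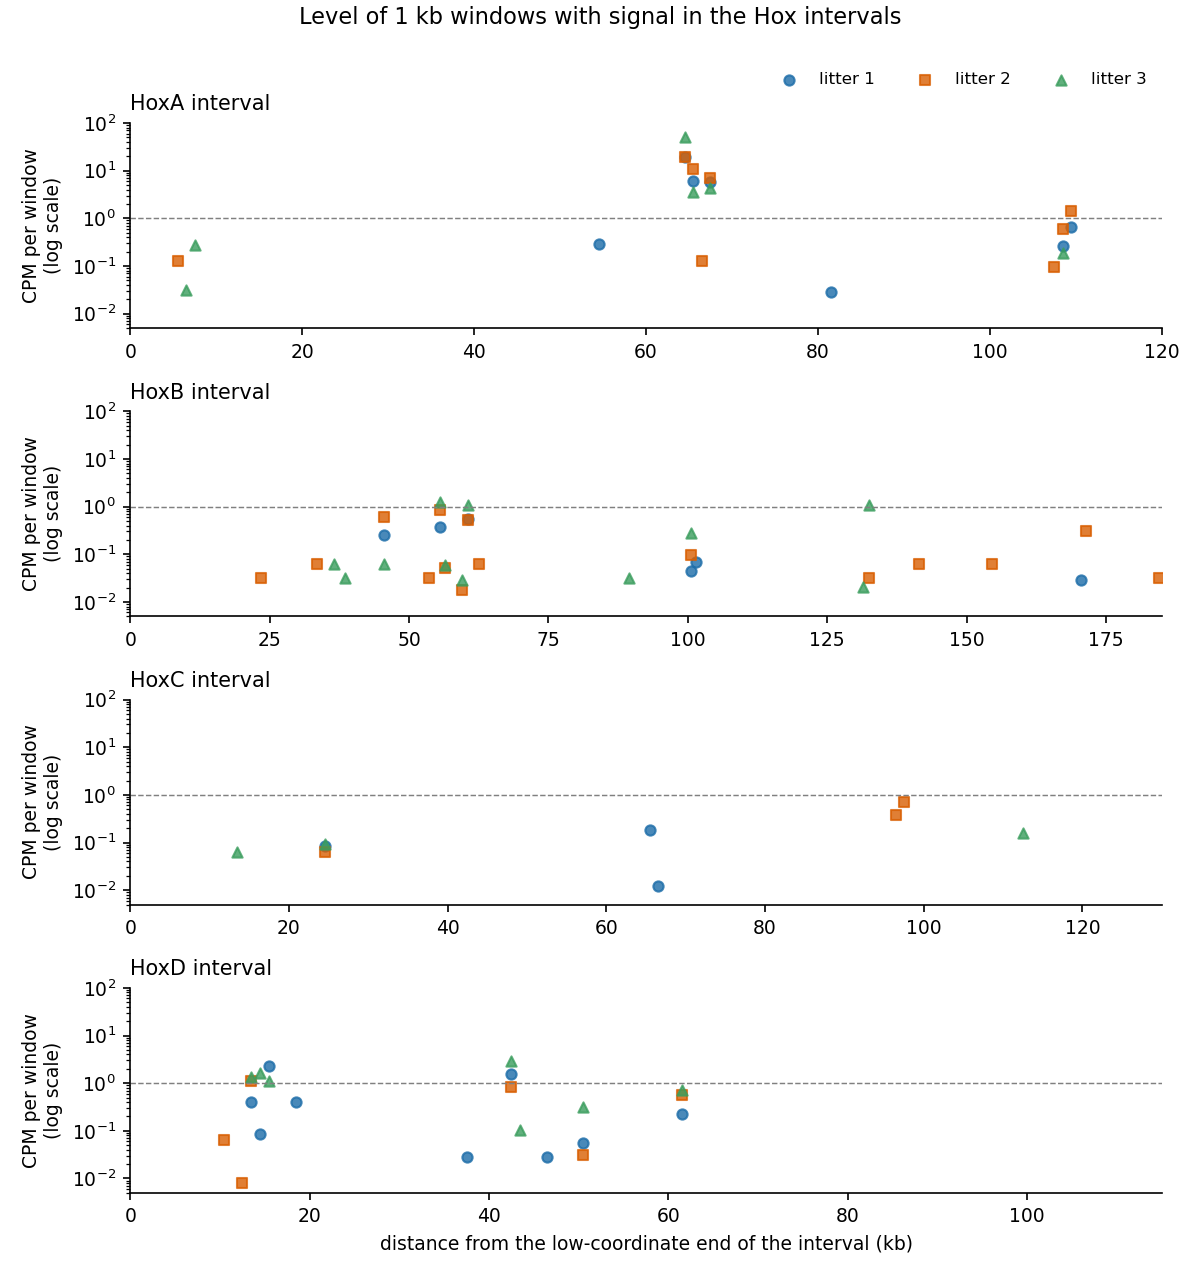
CPM of each 1 kb window (log scale) against the distance in kb from the low-coordinate end of its interval, 1 panel per cluster and 1 symbol per litter. Windows at 0 are not drawn and the dashed line marks 1 CPM. Only 3 windows, all in 1 stretch of HoxA, lie above the line in all 3 litters.

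HoxA carried the single well covered locus of the 4 intervals. The stretch ran from base 52164493 to base 52167580 of chromosome 6 (mm9), 3088 bases long, and held 1080, 1177 and 1859 alignments in litters 1, 2 and 3. It thus reached 30.7, 37.0 and 58.0 CPM (41.9 ± 14.3, SD, n = 3), the highest value being that of litter 3. This stretch made up 96.2%, 94.4% and 99.1% of the HoxA alignments in litters 1, 2 and 3. Its alignments had 327, 407 and 345 different start positions, so the signal was spread over many positions. To look for copies elsewhere in the genome, 51 sets of 3 successive start positions, each holding 50 alignments or more, were searched for the same counts and spacing. Of these sets, 0 were found again. A copy would show in this way only if reads were kept at each of their placements. Whether they were is not given, so the search does not decide whether copies exist. Windows 52164001 to 52165000, 52165001 to 52166000 and 52167001 to 52168000 of this stretch were the only Hox windows at 1 CPM or more in all litters. They were 3 of the 120 in HoxA, and the same level was reached in 1.21% of windows on the rest of chromosome 6. By mean CPM these HoxA windows stood at ranks 237, 858 and 975 among the 149518 windows of chromosome 6. HoxB, HoxC and HoxD had 0 windows at 1 CPM in all litters, beside 1.7% on the rest of chromosome 11, 1.16% on the rest of chromosome 15 and 1.35% on the rest of chromosome 2. HoxD had 2 such windows when litter 2 was left out and 1 when litter 1 was.

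Depth within this stretch lay in separate blocks. The lowest-coordinate block, from base 52164493 to 52165029, held 667, 606 and 1602 alignments in litters 1, 2 and 3. From base 52165039 to 52165608 there were only 26, 70 and 49, and from 52165624 to 52165932 there were 184, 273 and 67. A last block of 519 bases, from 52167062 to 52167580, held 203, 224 and 141. Between it and the others, the 893 bases from 52166169 to 52167061 were covered in none of the litters, and a block of 92 bases before that gap held 4 alignments of litter 2 only. The deepest base lay in the first block in each litter, with 538, 478 and 1111 alignments over it.

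The litters differed in how alignments were divided over these blocks. The first block took 61.8%, 51.5% and 86.2% of the stretch in litters 1, 2 and 3, with 95% Wilson intervals of 58.8 to 64.6, 48.6 to 54.3 and 84.5 to 87.7. By alignments none of these intervals overlapped, with litter 3 highest and litter 2 lowest. Counting each start position once gave the block 43.7% (38.5 to 49.1), 36.6% (32.1 to 41.4) and 53.9% (48.6 to 59.1). The order of the litters was the same by starts, but the interval of litter 1 then overlapped those of litters 2 and 3. In litter 3 a single start position held 139 alignments, or 7.48% of the stretch, against 24 (2.22%) in litter 1 and 29 (2.46%) in litter 2, and its part in the difference was not tested. Each share comes from 1 library, so the differences have no replicate check.

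**Figure D2:**
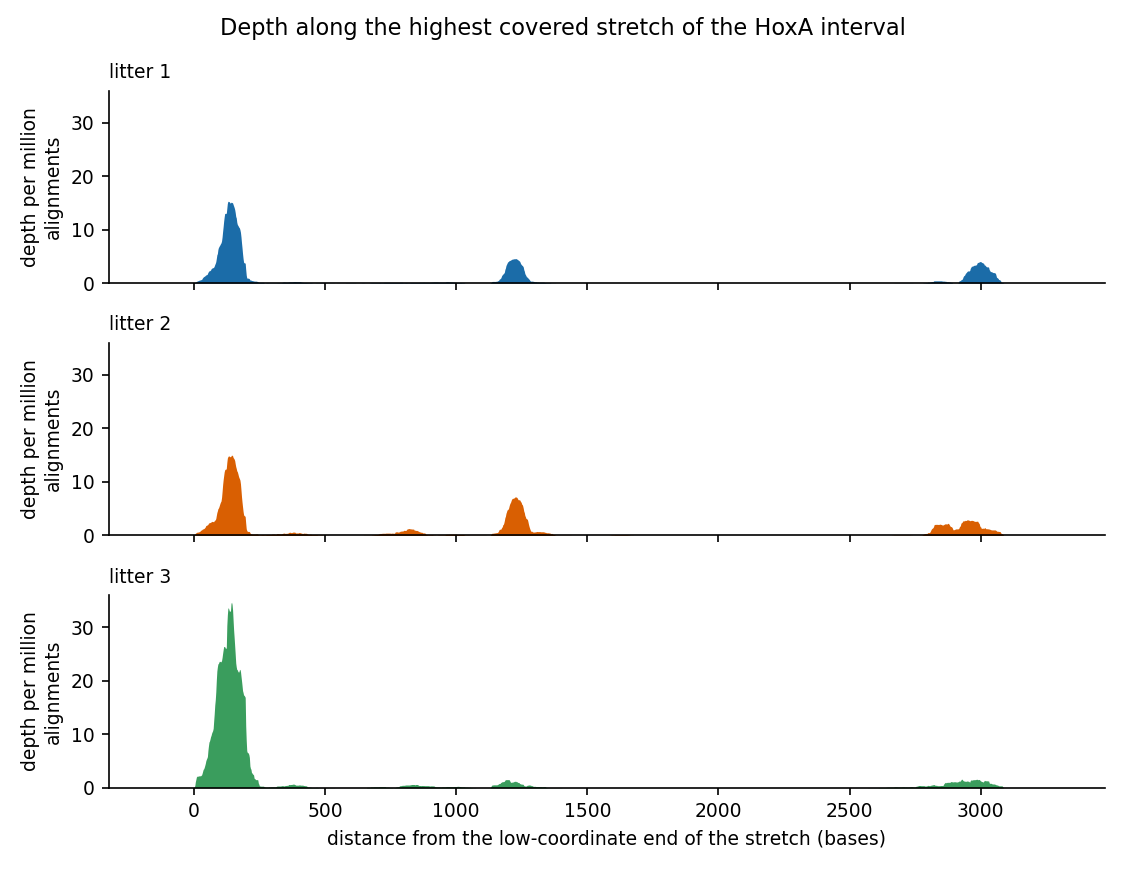
Depth, scaled to a library total of 1e6 alignments, along the highest covered stretch of HoxA against the distance in bases from its low-coordinate end, 1 panel per litter on the same scale. The first block is the highest in every litter and exceeds 30 in litter 3 alone, while both other peaks are lowest in litter 3.

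The rest of HoxA was nearly empty. A stretch near the high-coordinate end, from base 52207800 to 52209113, had signal in all litters, with 32, 66 and 6 alignments (1.06 ± 0.953 CPM, SD, n = 3). Its SD was nearly as large as its mean, litter 2 being high and litter 3 low. Of the 5 covered stretches, 1 more was found in litters 2 and 3 and 2 in litter 1 only, with 10 alignments at most. The longest piece of HoxA without a covered base in any litter measured 46.6 kb, from base 52107807 to 52154370. Without the highest stretch, which was left out after seeing the data, the HoxA level set against the rest of chromosome 6 had a log2 ratio of -5.88 ± 0.98 (SD, n = 3), against -0.69 ± 0.54 with it. The rest of chromosome 6 was kept whole, so leaving out this stretch could only lower the ratio.

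HoxD held signal in several weak stretches. The strongest spanned 2987 bases, from base 74507983 to 74510969 of chromosome 2, with 96, 36 and 130 alignments in litters 1, 2 and 3 (2.64 ± 1.47 CPM, SD, n = 3). Litter 2 was the lowest, and the litters did not cover the same bases throughout. The block from 74510780 to 74510969 held 79, 0 and 35 alignments, and another, from 74509259 to 74509574, held 52, all of litter 3. The next stretch, from 74537240 to 74538145, held 56, 26 and 95 alignments (1.79 ± 1.09 CPM), again lowest in litter 2. Within the strongest stretch the window from 74508001 to 74509000 reached 0.398, 1.12 and 1.34 CPM, and the window from 74510001 to 74511000 reached 2.25, 0 and 1.09 CPM. Neither was at 1 CPM in all litters. The next stretch contains the highest HoxD window, from 74537001 to 74538000, at 1.59, 0.818 and 2.86 CPM in litters 1, 2 and 3. Another, 127 bases from 74556423 to 74556549, held 8, 18 and 23 (0.504 ± 0.251 CPM). Beyond it no base was covered in any litter up to the end of the interval, 53.5 kb away. This piece was the longest empty one of the 4 intervals.

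HoxB signal was scattered over 16 stretches, of which 4 had signal in all litters. The highest lay from base 96105321 to 96106224 of chromosome 11, with 13, 29 and 42 alignments in litters 1, 2 and 3 (0.864 ± 0.473 CPM, SD, n = 3). A neighbour at 96109936 to 96110511 held 19, 17 and 35 alignments (0.723 ± 0.321 CPM), and one at 96095529 to 96095655 held 9, 19 and 2 (0.305 ± 0.271 CPM). The litters were not in the same order in these 3 stretches. Another, at 96181953 to 96182713, held 0, 1 and 35 alignments, so it came almost wholly from litter 3. It contains the HoxB window of rank 3, from 96182001 to 96183000, at 0, 0.0315 and 1.07 CPM in litters 1, 2 and 3. The other 2 windows named by rank lie in the highest 2 stretches.

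HoxC had the fewest covered bases, 155, 333 and 280 of its 130 kb in litters 1, 2 and 3. Of 5 stretches, 1 had signal in all litters, at bases 102769092 to 102769173 of chromosome 15, with 3, 2 and 3 alignments. That is at or below the 3 alignments that a count of 0 allows, so the levels there cannot be ordered. The highest HoxC windows, 102841001 to 102842000 and 102842001 to 102843000, held 12 and 22 alignments in litter 2 and 0 in litters 1 and 3. They made up 94.4% of the HoxC alignments of litter 2, and their 34 alignments were the most found in any stretch with signal in only 1 litter.

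**Figure D3:**
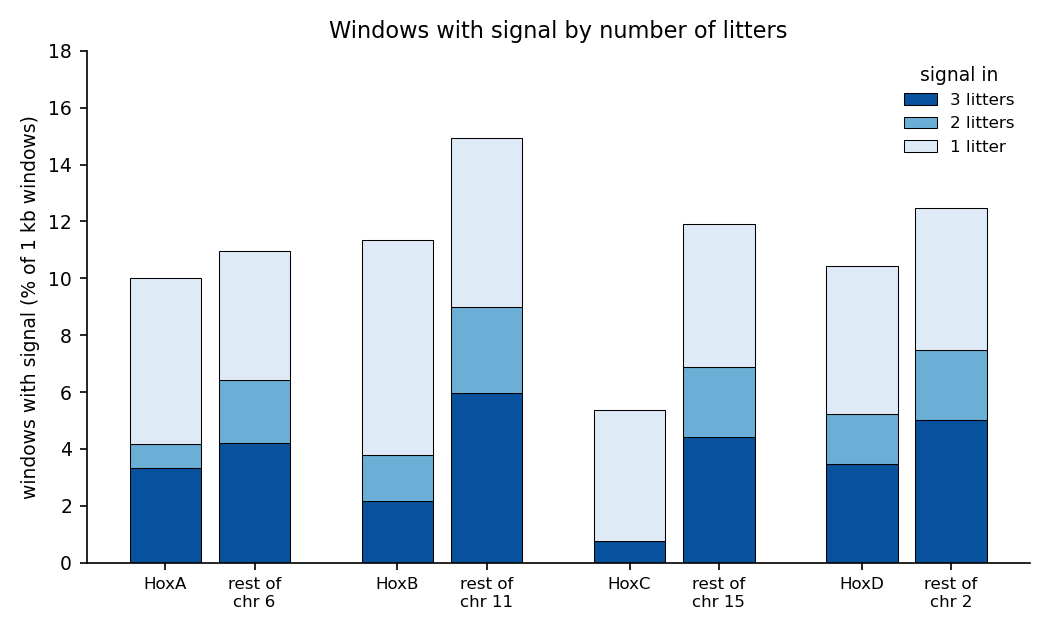
Share of 1 kb windows (%) with signal in 1, 2 or all 3 litters, stacked, for each Hox interval and beside it for all other windows of the same chromosome. The darkest part, signal in all litters, is 3.33% in HoxA, 2.16% in HoxB, 0.769% in HoxC and 3.48% in HoxD.

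Hox windows with signal were set beside all other windows of the same chromosomes. In HoxA 12 of 120 windows (10%) had signal in at least 1 litter, beside 10.9% on the rest of chromosome 6. HoxB had 21 of 185 (11.4%), beside 14.9% on the rest of chromosome 11. HoxC had 7 of 130 (5.38%), beside 11.9% on the rest of chromosome 15, and HoxD 12 of 115 (10.4%), beside 12.5% on the rest of chromosome 2. The HoxA and HoxD shares were thus close to their background. For signal in all 3 litters the HoxA share was 3.33% (4 windows), beside 4.22% on the rest of chromosome 6, and the HoxD share 3.48% (4 windows), beside 5.02% on the rest of chromosome 2. It was 2.16% (4 windows) in HoxB, beside 5.95% on the rest of chromosome 11, and 0.769% (1 window) in HoxC, beside 4.42% on the rest of chromosome 15. The HoxB count was 7 without litter 1, and with at least 3 alignments as the minimum it was 2 in HoxB and 0 in HoxC. Of the 52 Hox windows with any signal, 13 (25.0%) had it in all litters and 33 (63.5%) in 1 litter only, and on the rest of the 4 chromosomes these shares were 39.2% and 40.6%.

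The share of windows without signal lay above that of the rest of the chromosome in every litter and cluster. It was 94.2% ± 0.833 in HoxA and 92.8% ± 0.574 on the rest of chromosome 6 (SD, n = 3 each, as for the other clusters). HoxB had 94.2% ± 2.44, and the rest of chromosome 11 had 90.0% ± 0.877. In HoxC it was 97.7% in all 3 litters, with 92.3% ± 0.664 on the rest of chromosome 15, and in HoxD 93.6% ± 1.33, with 91.7% ± 0.618 on the rest of chromosome 2. With 3 litters a two-sided exact sign-flip test cannot give a p below 0.25, which is the value in each cluster, so none of these differences could pass a threshold of 0.05. The rest of a chromosome includes assembly gaps, where no read can align. Without runs of 50 kb or more that were empty in all libraries, the rest stood at 90.0%, 87.4%, 89.7% and 88.7% on chromosomes 6, 11, 15 and 2. This step was planned for the levels and applied to these shares after seeing the data. The runs held 28.0%, 20.6%, 25.0% and 26.6% of the rest windows, and how many were assembly gaps was not tested. Leaving out empty windows can only lower the share, and it was done for the rest alone. By covered bases HoxA went the other way in every litter, with 1.89% ± 0.0282 covered, beside 1.28% ± 0.0993 on the rest of chromosome 6. The other clusters had smaller shares of covered bases than their chromosomes. These were 0.817% beside 1.80% for HoxB, 0.197% beside 1.35% for HoxC and 1.27% beside 1.49% for HoxD.

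Mean levels per window were lower than on the rest of the chromosome in HoxB, HoxC and HoxD, while the direction for HoxA depended on the measure. HoxB averaged 0.0146 ± 0.00721 CPM per window and the rest of chromosome 11 averaged 0.471 ± 0.0116 (SD, n = 3 each). The log2 ratio was -6.05, -4.98 and -4.42 in litters 1, 2 and 3 (-5.15 ± 0.83). HoxC averaged 0.00443 ± 0.00371 CPM and the rest of chromosome 15 averaged 0.465 ± 0.0696, with log2 ratios of -7.86, -5.85 and -7.32 (-7.01 ± 1.04). Without litter 2 the HoxC level was 0.00229 CPM. Both clusters were far lower in each litter than the litters differed among themselves. HoxD averaged 0.0456 ± 0.0237 CPM and the rest of chromosome 2 averaged 0.379 ± 0.0154, with log2 ratios of -3.14, -4.10 and -2.37 (-3.20 ± 0.87). For HoxA the level was 0.360 ± 0.115 CPM and that of the rest of chromosome 6 was 0.562 ± 0.0378. Its log2 ratios of -1.12, -0.84 and -0.09 (-0.69 ± 0.54) were all negative, and that of litter 3 was close to 0. The exact sign-flip p is 0.25 in each cluster, the smallest that 3 litters can give.

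A few very high windows weigh on the mean of each chromosome, and repeated start positions weigh on both sides. Without the 100 highest windows of the rest of chromosome 6 the HoxA log2 ratio was 1.27 ± 0.38 (SD, n = 3). All HoxA windows were kept, so this step can only raise the ratio. With each start position counted once, in HoxA and in the rest, the HoxA ratio was 0.90 ± 0.27. By both measures HoxA was higher than the rest of chromosome 6. The same measures gave -3.93 and -2.77 for HoxB, -5.02 and -4.26 for HoxC, and -1.94 and -1.13 for HoxD. Leaving out of the rest its runs of 50 kb or more that were empty in all libraries can only lower the ratios. They were then -1.16 for HoxA, -5.48 for HoxB, -7.43 for HoxC and -3.65 for HoxD. Alignments per start position were 3.11, 2.71 and 5.22 in HoxA in litters 1, 2 and 3, and 11.1, 11.3 and 9.57 on the rest of chromosome 6. In HoxB they were 1.07, 1.18 and 1.40, and on the rest of chromosome 11 they were 6.31, 6.29 and 6.30.

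**Figure D4:**
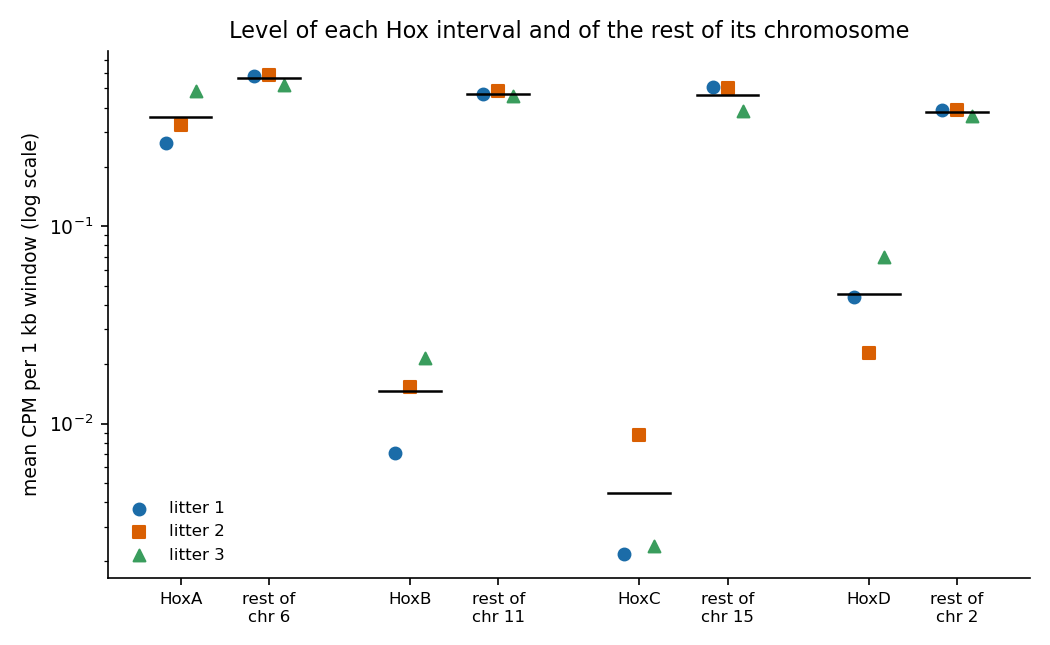
Mean CPM per 1 kb window (log scale) in each Hox interval and, to its right, over all other windows of its chromosome. Symbols are the 3 litters and bars their means. HoxB, HoxC and HoxD lie below their chromosome in every litter, and HoxA lies just below it, at 0.360 CPM on average against 0.562.

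Next to their own surroundings the clusters differed from one another. HoxA stood at 0.360 ± 0.115 CPM per window, against 0.0235 ± 0.0241 in the 100 kb on its low-coordinate side and 0.0588 ± 0.0181 in the 100 kb on the other (SD, n = 3 each). HoxD was at 0.0456 ± 0.0237, against 0.0180 ± 0.00380 on the low-coordinate and 0.0296 ± 0.0116 on the high-coordinate side. Both were above their flanks on average, although HoxD was so by less than its SD on the high-coordinate side. Without the highest stretch of each, left out after seeing the data, HoxA was at 0.0113 and HoxD at 0.0234 CPM per window. HoxA was then below both of its flanks, which were kept whole, and HoxD below the high-coordinate one only. HoxB, at 0.0146 ± 0.00721, lay above its low-coordinate flank (0.00353 ± 0.00240) and below the other (0.112 ± 0.0146). HoxC, at 0.00443 ± 0.00371, lay below its low-coordinate flank (0.548 ± 0.0949), and its high-coordinate flank was at 0.00540 ± 0.00683. Set against the 500 kb on either side, the log2 ratio was 0.23 ± 0.33 for HoxA, -5.52 ± 0.96 for HoxB, -7.36 ± 1.07 for HoxC and -0.42 ± 1.10 for HoxD. HoxA and HoxD thus differed from that neighbourhood by less than the spread between litters. For HoxD this rests largely on 1 bin of 5 kb, starting 530 kb from the low-coordinate end of its interval. That bin was at 8.90, 11.1 and 6.59 CPM per kb in litters 1, 2 and 3. The 500 kb holding it averaged 0.103 ± 0.0239 CPM per window, against 0.00941 ± 0.00241 on the low-coordinate side. The HoxD ratio without that bin was not computed.

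**Figure D5:**
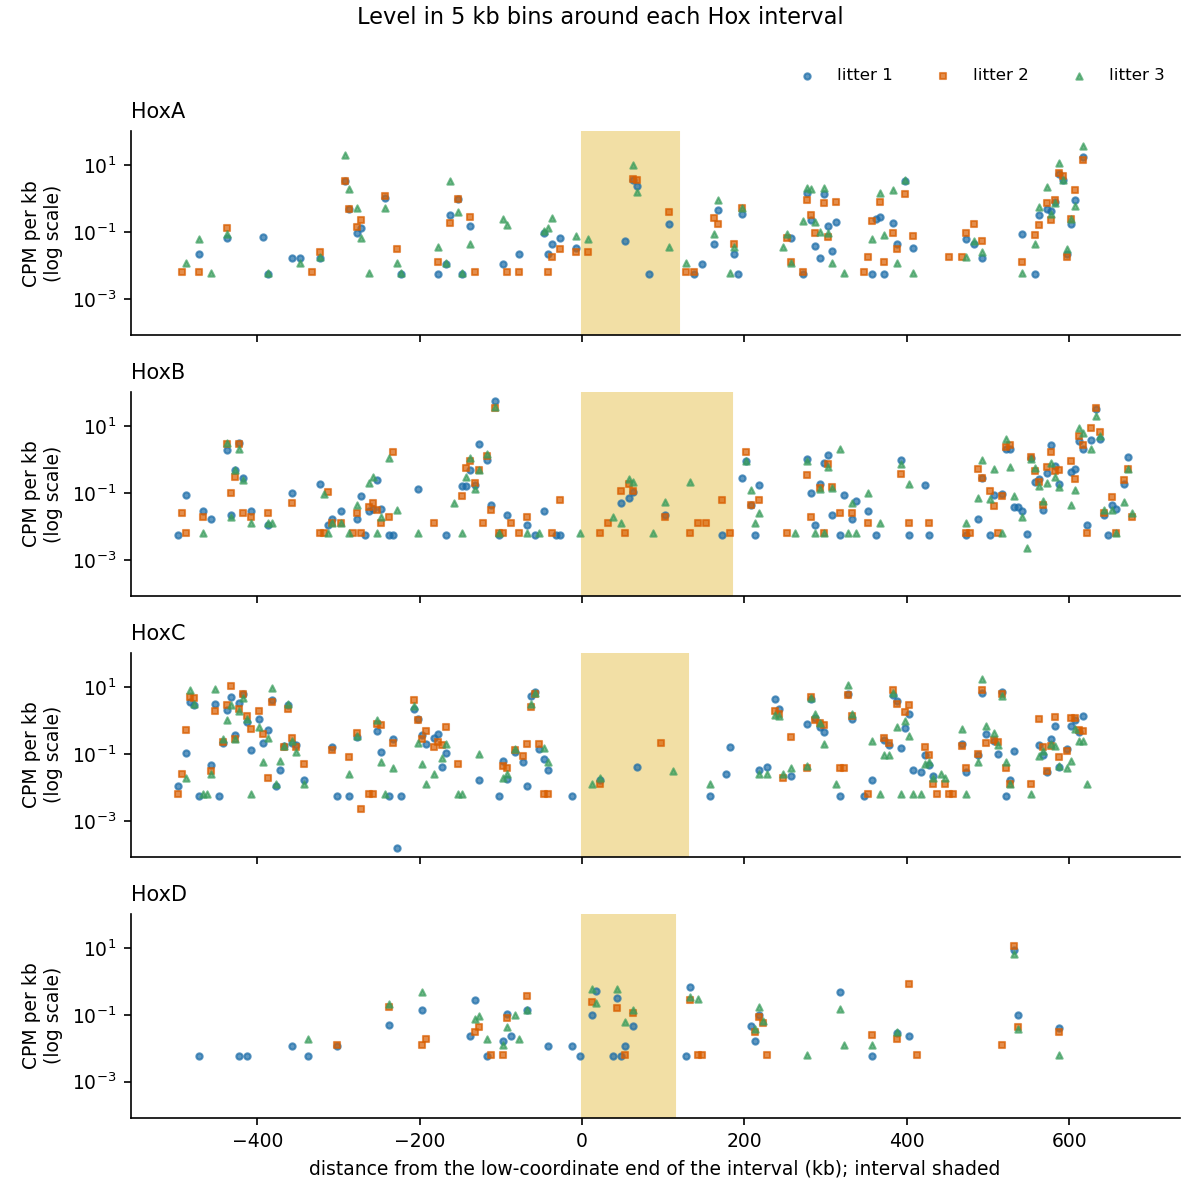
CPM per kb (log scale) in 5 kb bins against the distance in kb from the low-coordinate end of each Hox interval, with 500 kb shown on either side and the interval shaded. Bins at 0 are not drawn. HoxC and HoxB are sparse beside their surroundings, and HoxD lies in a neighbourhood that is itself sparse.

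Few Hox windows were deep enough for a test between litters. With a mean of at least 10 CPM, 1 Hox window could be tested, chr6:52164001-52165000, where 667, 606 and 1602 alignments began in litters 1, 2 and 3. It differed between litters beyond counting error (chi-square test with Benjamini-Hochberg adjustment over 10913 windows, adjusted p = 7.62e-156), by 2.64-fold between its highest and lowest litter. The adjusted p alone passed in 97.5% of all windows tested, so it sets nothing apart here. Its fold is under the limit of 4, so 0 of 1 Hox windows was called, where 17.4% of all windows tested were. A limit of 2-fold called it, along with 54.5% of all windows. At 4-fold, 1691 of 11183 windows were called without litter 1, 1203 of 10951 without litter 2 and 115 of 10515 without litter 3. In each case 0 of 1 Hox windows was called. At a mean of at least 1 CPM 5 Hox windows could be tested and 1 was called (35.1% of all 52367), chr2:74510001-74511000, with 79, 0 and 35 alignments. Each litter has 1 library, so counting error is the only error in this test. Litters 1, 2 and 3 also had different lane numbers (3, 4 and 8). Differences between amplifications, between females and between lanes cannot be told apart.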

How the data were processed

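RNA of ovulated oocytes was sequenced in 3 libraries, 1 per litter. The authors deposited 1 coverage track per library, whose signal is the number of alignments over each base, not scaled to depth. Bowtie and mm9 are the aligner and build in the submitters' processing notes. Which Bowtie release was run, how reads with several placements were treated and what was filtered is not given in the sources used here. Isolated blocks at depth 1 were 72 bases long in 99.9% of cases, so summed depth was divided by 72 to give alignments, and by the library total to give CPM. A window was counted as having signal if any of its bases was covered. Start positions were rebuilt from the steps in depth, with 0 negative counts, and the code was tested on simulated data. Coordinates are 1-based.

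In each cluster the 3 windows with the highest mean CPM, the 3 highest stretches with signal in all litters and every window at 1 CPM in all litters were named. Stretches and blocks with signal in fewer litters and the split of the HoxA stretch were chosen after their values were seen. Stretches are neighbouring windows with signal in any litter, joined. The intervals and the plan were chosen with earlier results of these data known. Library pairs differed by more than sampling noise, with a chi-square per degree of freedom of 11.0 or more over windows with any alignment, so each file counted as a library. Litters are numbered by the labels. Marker lists of oocytes, cumulus cells and blood were not analysed here, since they need an mm9 annotation. Alternatives covered window counting, start positions, borders, scaling, thresholds, window size, the choice of the rest and leaving out each litter. Python 3.11.15, numpy 2.4.6, scipy 1.17.1 and matplotlib 3.10.9 were used.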

Additional observations from a re-analysis of the deposited data

How the results depend on the processing

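Of 275 alternative values, 208 stayed within the spread between litters or, for counts, within 1.5 times. Some could not move by construction, such as ratios under another scaling total or empty windows with each start counted once. Direction changed for HoxA, whose log2 ratio to the rest of the chromosome was -0.69. It was 0.90 with each start counted once and 0.23 against the 500 kb on either side. Without the 100 highest windows of the rest it was 1.27, a step that can only raise the ratio. The HoxA ratio was -5.88 without the highest covered stretch, an alternative chosen after seeing the data. That stretch was left out of HoxA alone, which can only lower the ratio. The other ratios stayed negative on average. Each start counted once gave -2.77 for HoxB, -4.26 for HoxC, -1.13 for HoxD and -0.88 for all clusters pooled (-2.35 otherwise). Without the 100 highest windows they were -3.93, -5.02, -1.94 and -0.78. Against the 500 kb on either side HoxD stood at -0.42 ± 1.10 (SD, n = 3), so its direction was not settled by that measure. Without the highest stretch of each cluster HoxC stood at -8.38, HoxD at -4.13 and the pooled ratio at -5.41. Leaving out each litter gave pooled ratios of -2.66 to -2.14.

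The 94.9% of Hox windows without signal became 96.8% with at least 3 alignments as the minimum, 96.5% with 500 base windows, 81.8% with 5 kb windows and 96.3% without the highest stretches. The 3 windows at 1 CPM in all litters became 9 with each start counted once, 1 at 5 CPM and 0 without the highest stretches, and 3 to 5 when each litter was left out, the most without litter 2. Windows with signal in all litters fell to 8, against 13, without the highest stretches. The mean Hox level of 0.0941 CPM per window became 0.222 with each start counted once, 0.144 with a total that leaves out the 100 highest windows and the mitochondrial chromosome, and 0.0111 without the highest stretches. Windows that differ between litters numbered 0, but 1 with a 2-fold limit (54.5% of all windows tested) and 1 when the minimum mean was 1 CPM. Where the construction of an alternative does not show it, the cause was not tested. No paired analysis was possible because only 1 group was sampled. Depth limits statements on windows with 3 alignments or fewer.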
